A study of Arabidopsis thaliana with 12 samples.

Results

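The comparison described here is the interaction of genotype and abscisic acid (ABA) in Arabidopsis thaliana seedlings. It asks whether the change in a gene's mRNA after ABA differed between the mutant hda9-1 and wild type Col-0. All 12 of the 12 samples entered it, in 4 groups of 3. The groups were wild type without ABA, wild type 4 h after a spray with 50 µM ABA, hda9-1 without ABA, and hda9-1 4 h after the same spray. The seedlings were 2 to 3 weeks old and had grown on sucrose medium under long days. The mutation is in HDA9, the gene of a histone deacetylase, and the title of the study names ABA signalling and the redox systems of both organelles, chloroplast and mitochondrion. For each gene the ABA response is a log2 fold change, and the interaction is the response in hda9-1 minus the response in wild type, so a value above 0 means a response shifted upwards in hda9-1. Untreated samples were not mock-sprayed as far as the labels say, so the effect of ABA and that of the 4 h that passed, time of day included, cannot be told apart. The treatment field of the labels gives ABA to every hda9-1 sample and to no wild-type sample. The titles cross genotype with treatment, and groups were taken from them. The labels call the samples biological replicates and do not mention separate cultures, so the spread that p-values rest on is that between these 12 samples and may be technical.

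ABA is the hormone of drought and salt stress in plants. It binds PYR/PYL receptors, which then block clade A PP2C phosphatases, and this frees SnRK2 kinases to activate ABF and ABI transcription factors at promoters that carry an ABA-responsive element. HDA9 removes acetyl groups from histones, works with the proteins PWR and HOS15, and is known for repressing genes, with roles in flowering time, leaf ageing and stress responses.

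Library totals ran from 42703802 to 52820930 counts, and 21510 to 22189 genes had a count. HDA9 (AT3G44680, chr3:16226519-16230009, minus strand, TAIR10.1) had 16.2 ± 0.721 CPM (counts scaled to library size, SD, n = 3) in untreated and 16.6 ± 0.252 CPM in ABA-treated wild type, and 5.34 ± 0.583 CPM and 5.16 ± 0.344 CPM in hda9-1, with no overlap of genotypes. The test found no difference in its ABA response (interaction -0.08 ± 0.17 SE on the log2 scale, edgeR adjusted p = 0.891). The summed level of 9 root markers was 392 to 470 CPM without and 169 to 222 CPM with ABA in wild type, and 264 to 357 CPM without and 101 to 145 CPM with ABA in hda9-1. The summed level of 6 guard cell markers was 69.6 to 73.7 CPM without and 130 to 133 CPM with ABA in wild type, and 52.2 to 66.1 CPM and 82.6 to 104 CPM in hda9-1. Each of these markers had more than 1 count per library on average. The summed level of the seed maturation markers, of which 4 were tested, was 0.476 to 2.14 CPM without and 6.46 to 8.87 CPM with ABA in wild type, and 0.0919 to 3.47 CPM and 9.36 to 13.2 CPM in hda9-1. That of the floral markers was 2.29 to 4.54 CPM and 1.64 to 3.86 CPM in wild type and 2.93 to 7.61 CPM and 6.0 to 9.42 CPM in hda9-1. Most of the seed maturation sum with ABA was EM6, with a mean of 6.21 CPM in wild type and 8.83 CPM in hda9-1. In whole seedlings, fewer cells of a type and less RNA per cell cannot be told apart. One library, hda9-1 with ABA replicate 2, differed most from the other libraries of its group, and the values without it stand below.

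Genes called in both ABA responses nearly all moved in the same direction, and no gene passed edgeR's test for a difference. Of 20924 genes tested, 0 were called in the interaction at an adjusted p below 0.05 by edgeR's quasi-likelihood test, which is 0.00% of all genes. The smallest adjusted p was 0.0564. At an unadjusted p below 0.05 there were 2467 genes, or 11.8%, of which 1699 (8.12%) had a higher and 768 (3.67%) a lower response in hda9-1. limma-voom called 0 genes as well, with 2242 at an unadjusted p below 0.05, whereas DESeq2 called 123 genes, or 0.588%, of which 107 (0.511%) were higher and 16 (0.0765%) lower.

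Each genotype's own response was broad. In wild type 6474 genes were called, 30.9% of those tested, and in hda9-1 8767 genes, or 41.9%. Both responses were called for 5181 genes, and 5176 of these moved in the same direction. Of the 20924 genes tested, a further 1293 were called in wild type only and 3586 in hda9-1 only. A call in 1 genotype alone is not a test of a difference between genotypes. These totals also moved with the libraries kept, as given at the end. The responses of the 2 genotypes share no library. Across the 20924 genes their log2 values had a Pearson r of 0.837, a description over genes within 1 experiment. The 95% confidence interval of the interaction lay within a 2-fold change in either direction for 14327 genes, or 68.5% of those tested. For such genes a difference of 2-fold or more lies outside the interval. For the others the data did not fix the difference that closely: the median standard error of the interaction was 0.207 over all genes, 0.936 for genes under 1 CPM on average and 0.136 for genes over 100 CPM.

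**Figure D1:**
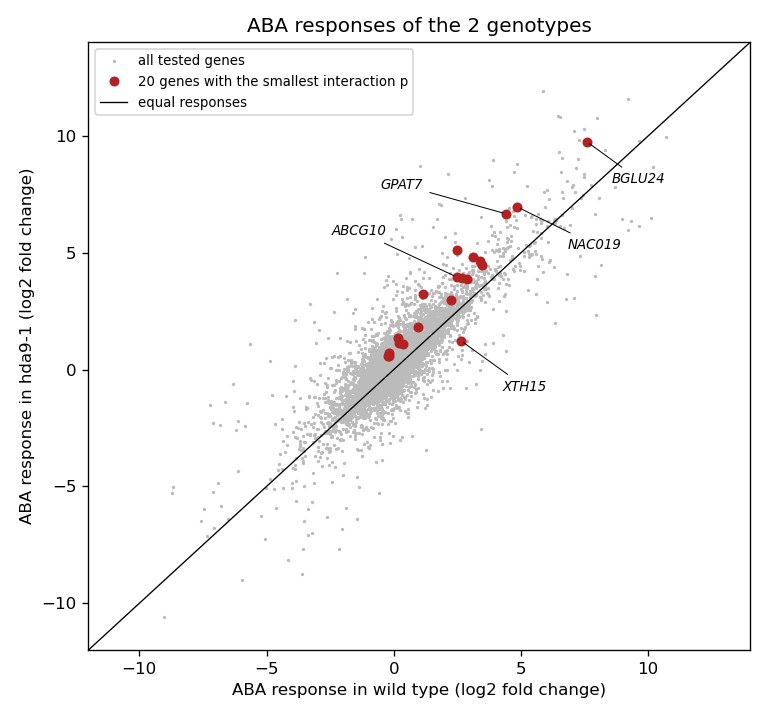
ABA response (log2 fold change) of every tested gene in wild type (x axis) and in hda9-1 (y axis), as grey points, with the 20 genes of smallest interaction p in red and a line of equal responses. Most points lie along the line, 19 of the 20 red points lie above it, and XTH15 lies below it.

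Among genes with at least 5 CPM in 1 group, the 20 with the smallest interaction p had adjusted p-values from 0.0564 to 0.193 by edgeR, so none passed, and they are given as values. They were picked after their values were seen. In 19 of the 20 the response was higher in hda9-1. Of the 20, 15 were called lower in hda9-1 without ABA (6.57% of all genes were), and 14 of these were not called with ABA (922 of all 20924 genes had both traits). Another 4 were not called without ABA and were called higher in hda9-1 with ABA (925 of all 20924 genes). The 20 were ranked by an interaction made from the same levels, so these counts describe them and nothing is read from them. The promoters of ABCG10, GPAT7, NAC019 and XTH15 are shown because these are the gene with the smallest p, the leading genes of the suberin and ABA-marker lists, and the only gene of the 20 with a lower response. Each is the 250 bases before the annotated gene start, on the gene's strand, read from the RefSeq genome TAIR10.1, and capitals mark ACGTG or CACGT, the core of the ABA-responsive element on either strand. The windows are chr1:19862571-19862820 (plus strand), chr5:1834797-1835046 (plus), chr1:19698483-19698732 (minus) and chr4:8138393-8138642 (minus).
ABCG10: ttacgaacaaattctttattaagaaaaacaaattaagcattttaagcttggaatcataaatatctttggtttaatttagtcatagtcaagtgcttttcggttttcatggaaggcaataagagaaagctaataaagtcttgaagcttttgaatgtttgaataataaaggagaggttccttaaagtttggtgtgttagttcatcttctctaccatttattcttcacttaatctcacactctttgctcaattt
GPAT7: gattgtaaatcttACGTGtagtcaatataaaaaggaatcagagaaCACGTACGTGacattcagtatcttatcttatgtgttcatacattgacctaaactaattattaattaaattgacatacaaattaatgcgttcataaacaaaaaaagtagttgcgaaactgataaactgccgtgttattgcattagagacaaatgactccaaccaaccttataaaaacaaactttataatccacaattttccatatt
NAC019: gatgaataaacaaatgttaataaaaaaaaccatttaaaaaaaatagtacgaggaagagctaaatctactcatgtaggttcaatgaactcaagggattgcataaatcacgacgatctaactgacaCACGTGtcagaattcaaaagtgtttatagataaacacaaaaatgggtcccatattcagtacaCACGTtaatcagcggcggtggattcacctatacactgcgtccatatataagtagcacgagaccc
XTH15: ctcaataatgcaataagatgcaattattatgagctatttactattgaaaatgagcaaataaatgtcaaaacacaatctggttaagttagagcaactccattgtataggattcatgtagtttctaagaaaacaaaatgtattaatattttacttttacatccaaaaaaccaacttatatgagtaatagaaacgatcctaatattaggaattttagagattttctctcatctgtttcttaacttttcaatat
The GPAT7 and NAC019 windows each held 3 matches, counting both strands and overlapping letters. The ABCG10 and XTH15 windows held 0. Of the 20797 tested genes with such a window, 24.0% had a match, and a match or its absence is a description of these letters alone.

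ABCG10 (AT1G53270, chr1:19862821-19864650) encodes an ABC transporter of subfamily G and had the smallest p. In wild type its level was 3.42, 3.68 and 3.20 CPM without ABA and 18.8, 16.6 and 22.2 CPM with ABA. In hda9-1 it was 1.67, 1.40 and 1.63 CPM without ABA and 26.3, 26.2 and 20.9 CPM with ABA. All 3 hda9-1 libraries lay below wild type without ABA, and with ABA the genotypes overlapped. The response was 2.48 ± 0.15 in wild type and 3.96 ± 0.16 in hda9-1, an interaction of 1.48 ± 0.21 with a 95% interval of 1.04 to 1.92 (edgeR adjusted p = 0.0564).

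GPAT7 (AT5G06090, chr5:1835047-1837037) encodes a glycerol-3-phosphate acyltransferase linked to suberin made at wounds. It had 2.09, 1.58 and 1.9 CPM in wild type before ABA, against 0.62, 0.621 and 0.161 CPM in hda9-1, and 40.9, 37.5 and 39.9 CPM against 54.9, 46.9 and 39.5 CPM with ABA. Again hda9-1 lay below wild type before the spray and overlapped it afterwards. The interaction was 2.27 ± 0.35 (edgeR adjusted p = 0.118). FAR4 (AT3G44540), a fatty acyl-CoA reductase that makes the fatty alcohols of suberin, had 11.1 to 12.4 CPM in wild type and 6.32 to 7.65 CPM in hda9-1 without ABA, and 54.9 to 58.2 CPM against 50.6 to 59.3 CPM with ABA. Its interaction was 0.73 ± 0.13 (edgeR adjusted p = 0.137), with no overlap of genotypes without ABA and full overlap with it.

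**Figure D2:**
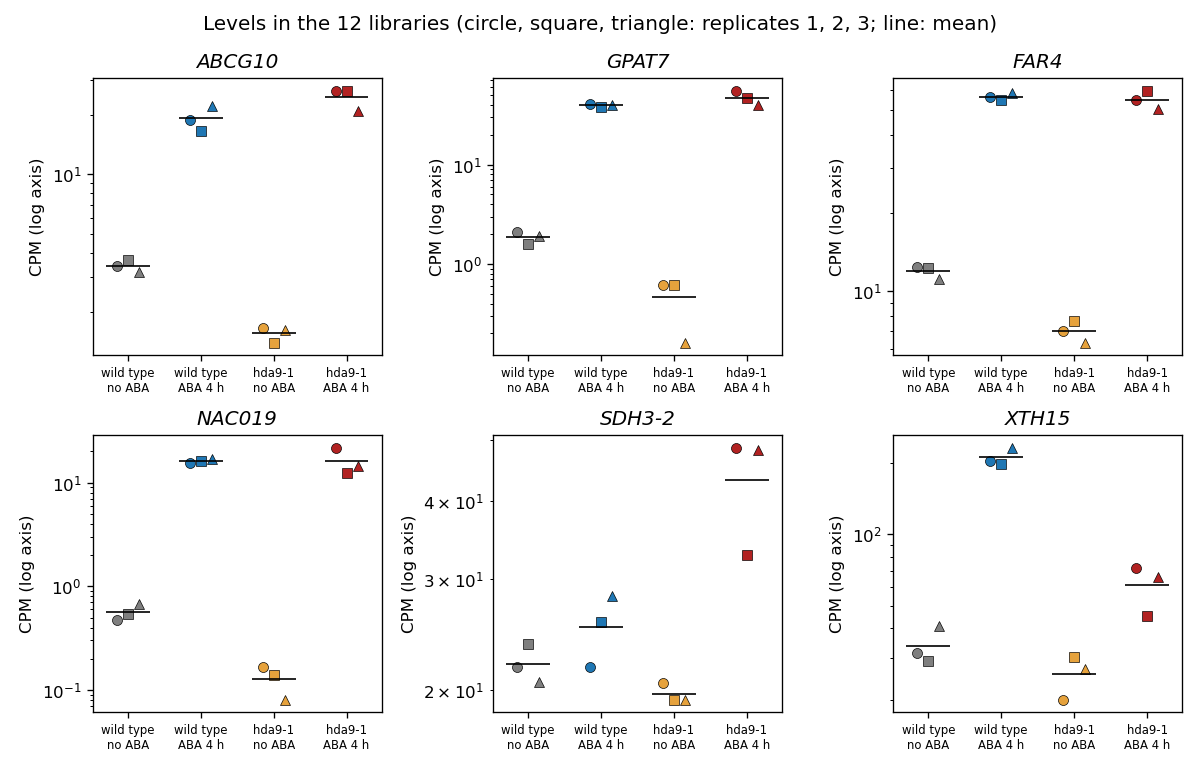
Level in CPM (log axis) of 6 genes in the 12 libraries, by group, with replicates 1, 2 and 3 as circle, square and triangle and the group mean as a line. In ABCG10, GPAT7, FAR4 and NAC019 the hda9-1 libraries lie below wild type without ABA and overlap it with ABA, in SDH3-2 they lie above wild type with ABA, and in XTH15 they lie below it with ABA.

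Suberin is the waxy polyester that seals root cell walls and wounds, and a list of 20 of its genes was drawn up after these leading genes had been seen, so it lends them no support. By edgeR, 19 of the 20 rose with ABA in wild type and 19 in hda9-1 (17.0% and 23.3% of all genes rose). Their median interaction was 0.64, against 0.02 over all tested genes, and 18 of the 20 values were above 0 (53.2% of all genes were). None was called by edgeR, and 10 had an unadjusted p below 0.05 with a higher response (8.12% of all genes). DESeq2 called 7, all higher (0.511% of all genes). With hda9-1 with ABA replicate 2 left out edgeR called 7 higher (4.98% of all genes), and 2 once exon length trends were removed as well (0.696%). With those trends removed and all libraries kept it called 1, FAR4 (0.0143%). Without ABA 8 of the 20 were called lower and 1 higher in hda9-1 (6.57% and 6.98% of all genes). With ABA 0 were called lower and 1 higher (5.21% and 7.50% of all genes).

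Among the monomer enzymes, GPAT5, the acyltransferase of root suberin, had 4.86, 5.15 and 4.61 CPM in wild type and 3.16, 2.48 and 1.65 CPM in hda9-1 without ABA, and 43.7 to 57.2 CPM against 47.3 to 56.0 CPM with ABA. Its interaction was 0.99 ± 0.23 (edgeR adjusted p = 0.209). The cytochrome P450 CYP86B1, which hydroxylates very long acids, had an interaction of 1.06 ± 0.23, the reductase FAR5 0.89 ± 0.21 and the elongase KCS2 0.74 ± 0.17. Without ABA these genes were called lower in hda9-1, with log2 differences of -1.005 ± 0.18 in GPAT5, -0.65 ± 0.17 in CYP86B1, -0.91 ± 0.15 in FAR5 and -0.57 ± 0.13 in KCS2 (edgeR adjusted p from 0.0022 to 0.0223). With ABA none of these genes was called between genotypes. The CYP86B1 libraries overlapped without ABA and did not with ABA, at 67.8 to 73.8 CPM in wild type and 93.6 to 98.3 CPM in hda9-1.

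The MYB transcription factors of suberin did not move as 1 group. MYB9 had an interaction of 1.08 ± 0.26 and MYB93 of 0.79 ± 0.27, whereas MYB107 had -0.47 ± 0.28 and was called higher in hda9-1 without ABA (0.68 ± 0.21, edgeR adjusted p = 0.0417). MYB41, a further regulator, had 1.02 ± 0.62, the transporters ABCG6 and ABCG20 0.70 ± 0.35 and 0.52 ± 0.15, the feruloyl transferase RWP1 0.58 ± 0.31 and the P450 CYP86A1 0.37 ± 0.16. The other 6 list members had interactions from -0.30 to 0.16. The values of this list had a median of 0.65 once exon length trends of the libraries were removed.

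**Figure D3:**
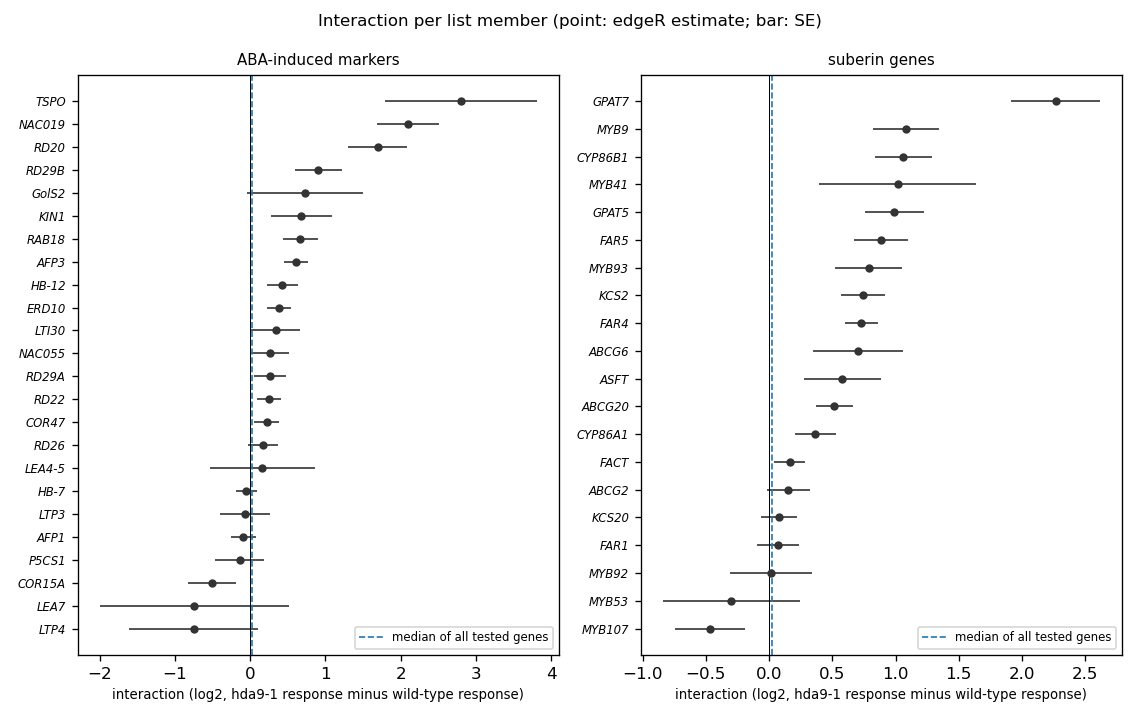
Interaction (log2, response in hda9-1 minus response in wild type) of the 24 ABA-induced markers and of the 20 suberin genes, as edgeR estimates with their SE, and the median of all tested genes as a dashed line. Of the markers 17 lie above 0, and of the suberin genes 18.

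All 24 ABA-induced markers rose with ABA in wild type and in hda9-1 (17.0% and 23.3% of all genes). Their median interaction was 0.26, 17 of 24 values were above 0 (53.2% of all genes), and 7 had an unadjusted p below 0.05 in the higher direction (8.12% of all genes) and 0 in the lower. By edgeR none was called with all libraries, 4 were called higher without replicate 2 of hda9-1 with ABA (4.98% of all genes), and 1 once length trends were removed as well (0.696%). Without ABA 7 of the 24 were called lower and 1 higher in hda9-1 (6.57% and 6.98% of all genes). With ABA 2 were called lower and 2 higher (5.21% and 7.50% of all genes).

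NAC019 (AT1G52890), an ABA-responsive NAC transcription factor, had the smallest p of the list. It had 0.468, 0.546 and 0.671 CPM in wild type and 0.165, 0.138 and 0.0803 CPM in hda9-1 without ABA, and 15.4, 16.3 and 17.1 CPM against 21.6, 12.3 and 14.4 CPM with ABA. The genotypes separated without ABA and overlapped with ABA. The interaction was 2.096 ± 0.42 (edgeR adjusted p = 0.158), resting on 18 counts over the 3 libraries of hda9-1 without ABA. RD29B, a hydrophilic stress protein and classical ABA reporter, had 0.692 to 1.22 CPM in wild type and 0.23 to 0.502 CPM in hda9-1 without ABA, and 159 to 205 CPM against 110 to 134 CPM with ABA. In RD29B hda9-1 was lower at both times, with log2 differences of -1.48 ± 0.28 without and -0.58 ± 0.13 with ABA, so its interaction of 0.91 ± 0.32 (edgeR adjusted p = 0.319) came with a lower end level. RAB18, a dehydrin, was also lower in every hda9-1 library at both times, with an interaction of 0.66 ± 0.23 (edgeR adjusted p = 0.324).

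The core of ABA signalling held no member called in the interaction. The 9 clade A phosphatases had a median interaction of -0.01, and all rose in wild type and in hda9-1 (17.0% and 23.3% of all genes). ABI1 had an interaction of -0.04 ± 0.13 with a 95% interval of -0.30 to 0.23, which lies within a 2-fold change in either direction. HAI3, the member with the smallest p, went from 0.108, 0.084 and 0.346 CPM to 26.0, 27.0 and 29.7 CPM in wild type and from 0.0, 0.046 and 0.0401 CPM to 29.1, 30.2 and 25.1 CPM in hda9-1. Its end levels overlapped, and its interaction of 2.55 ± 0.73 (edgeR adjusted p = 0.248) rests on 4 counts in hda9-1 without ABA. The 10 tested receptors, of which 6 fell and 1 rose with ABA in each genotype, had a median interaction of 0.07. Of all 20924 genes, 2923 fell with ABA in wild type and 3893 in hda9-1, and 17.0% and 23.3% rose. The 8 tested SnRK2 kinases and ABA transcription factors had a median of -0.04 and included ABF2, a bZIP activator, at 0.45 ± 0.16. The 12 tested genes of ABA synthesis and breakdown had a median of 0.01, and CYP707A3, an ABA hydroxylase, had 0.68 ± 0.25.

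The mitochondrial and redox lists bear on the study's title. With all libraries none of their members was called by edgeR in the interaction. Among 13 tested genes of alternative respiration the median was 0.01. The list of cytochrome c and the respiratory chain had a median of 0.18 over 10 genes, and mitochondrial stress markers 0.29 over 9. At an unadjusted edgeR p below 0.05, 4 and 1 of them had a higher response (8.12% of all genes) and 0 a lower. AOX1A, the stress-induced alternative oxidase, had 26.1 to 37.5 CPM in wild type and 40.5 to 55.5 CPM in hda9-1 without ABA, and 50.5 to 63.3 CPM against 79.2 to 84.3 CPM with ABA. It was higher in every hda9-1 library at both times and rose in both genotypes, with an interaction of -0.14 ± 0.20 and a 95% interval of -0.56 to 0.29. NDA2, an internal NAD(P)H dehydrogenase, had 15.6 to 18.9 CPM against 19.9 to 20.0 CPM without ABA, and 21.4, 28.3 and 27.5 CPM against 48.2, 35.9 and 52.9 CPM with ABA. Its interaction was 0.61 ± 0.19 (edgeR adjusted p = 0.288). Without replicate 2 of hda9-1 with ABA edgeR called it (adjusted p = 0.0137), also with length trends removed (0.0326). DESeq2 with all libraries did not call it (adjusted p = 0.188).

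SDH3-2, a membrane subunit of succinate dehydrogenase in the respiratory chain, was among the 20 genes with the smallest p. It had 21.8, 23.7 and 20.6 CPM in wild type and 20.5, 19.3 and 19.3 CPM in hda9-1 without ABA. With ABA it had 21.8, 25.7 and 28.2 CPM in wild type and 48.5, 32.8 and 48.2 CPM in hda9-1. The hda9-1 libraries lay above wild type with ABA, and replicate 2 was the lowest of them. The interaction was 0.94 ± 0.19 (edgeR adjusted p = 0.181). In a list of 47 tested respiratory chain subunits, taken from the annotation's product text after the data had been seen, 20 had a higher and 1 a lower response at an unadjusted p below 0.05 (8.12% and 3.67% of all genes), and the median was 0.49. These are short genes, with a median exon length of 1196 nt against 1766 nt over all tested genes, and after removal of exon length trends their median was 0.16. Without replicate 2 edgeR called 21 of them higher (4.98% of all genes), and 5 once length trends were removed too (0.696%).

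Copper-zinc superoxide dismutase CSD1 removes superoxide in the cytosol. It had 145, 143 and 117 CPM without and 87.6, 75.2 and 103 CPM with ABA in wild type, and 98.3, 114 and 125 CPM without and 167, 123 and 122 CPM with ABA in hda9-1. It fell in wild type (-0.61 ± 0.15, edgeR adjusted p = 0.00556) and was not called in hda9-1 (0.29 ± 0.15), and the interaction of 0.90 ± 0.21 did not pass (edgeR adjusted p = 0.209). After removal of exon length trends it was 0.53. CSD1 was called by DESeq2 with all libraries (adjusted p = 0.0188) and by edgeR without replicate 2 (adjusted p = 0.0248). With length trends removed as well edgeR did not call CSD1 (adjusted p = 0.478). The 33 peroxiredoxins and thioredoxins, which reduce peroxides and protein disulfides, had a median of 0.35, with 29 values above 0 (53.2% of all genes) and 10 at an unadjusted p below 0.05, all higher (8.12% of all genes). Their median exon length was 1053 nt, and the median became 0.01 once length trends were removed. Without replicate 2 edgeR called 7 higher (4.98% of all genes), and 0 with length trends removed as well (0.696%). TRX2, a cytosolic thioredoxin, had an interaction of 0.61 ± 0.18. It became 0.08 with length trends removed and all libraries kept, and 0.05 without replicate 2 as well.

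The other redox lists differed in how far they moved with length. The 15 tested glutathione S-transferases, which detoxify electrophiles and peroxides, had a median of 0.45 and kept 0.38 after removal of length trends. GSTF10 had 139, 216 and 211 CPM in wild type and 131, 138 and 99.8 CPM in hda9-1 without ABA, and 156 to 171 CPM against 168 to 236 CPM with ABA, with an interaction of 0.97 ± 0.24 (edgeR adjusted p = 0.238). It was called by DESeq2 (adjusted p = 0.0255) and by edgeR without replicate 2 (adjusted p = 0.0198). With length trends removed as well edgeR did not call it (adjusted p = 0.104). The 27 tested genes of the ascorbate-glutathione cycle had a median of 0.10, and 25 of their 95% intervals lay within a 2-fold change. All 40 nuclear photosynthesis genes had such intervals, with a median of -0.03. The 8 tested NADPH oxidases, which make superoxide at the plasma membrane, had a median of 0.28. RBOHB, the member with the smallest p, fell in both genotypes and had an interaction of -0.89 ± 0.37 (edgeR adjusted p = 0.381).

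With all libraries none of the 78 tested genes of the chloroplast genome was called in the interaction. Of these, 73 had values above 0 (53.2% of all genes did), the median was 0.77, and 21 had an unadjusted p below 0.05 in the higher direction (8.12% of all genes). By edgeR 21 rose with ABA in hda9-1 (23.3% of all genes rose there) and 0 in wild type (17.0% of all genes). Without replicate 2 of hda9-1 with ABA edgeR called 4 of the 78 higher in the interaction (4.98% of all genes). The 25 tested mitochondrial genes had a median of 0.34. With all libraries edgeR called 0 of these 25 and DESeq2 called 2 higher (0.511% of all genes). Without replicate 2 edgeR called 3 of the 25 higher (4.98% of all genes), and 0 with length trends removed as well (0.696%). The libraries were made from poly(A) RNA, in which organelle transcripts are a residue.

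The partners of HDA9 differed between genotypes at both times. PWR (AT3G52250), its SANT-domain partner, had 110 to 136 CPM in wild type and 212 to 234 CPM in hda9-1 without ABA, and 124 to 134 CPM against 182 to 223 CPM with ABA. It was higher in every hda9-1 library, by 0.86 ± 0.10 without and 0.59 ± 0.10 with ABA (edgeR adjusted p = 0.000228 and 0.00214), and its interaction was -0.27 ± 0.14. HOS15, a WD40 repeat protein, was higher by 0.38 ± 0.08 and 0.26 ± 0.08, with an interaction of -0.12 ± 0.11. The 17 tested histone deacetylases and partners had a median of -0.05. HDT4 (AT2G27840), a plant-specific histone deacetylase, had the smallest p in this list at 0.82 ± 0.26 (edgeR adjusted p = 0.292). Without replicate 2 of hda9-1 with ABA edgeR called 1 of the 17 higher and 1 lower (4.98% and 2.65% of all genes). These were HDT4 (0.95, adjusted p = 0.0265) and PWR (-0.41, adjusted p = 0.0494). With length trends removed as well edgeR called neither (adjusted p = 0.128 and 0.548).

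Of the remaining lists, salicylic acid and defence had a median of 0.50 over 16 genes, auxin response 0.28 over 14, touch and early stress 0.34 over 15, jasmonate 0.18 over 19, leaf senescence 0.03 over 16, flowering 0.07 over 11, heat shock 0.09 over 16 and the mitotic cycle 0.04 over 11. The clock genes had a median of -0.12 over 15. In leaf senescence, SAG29, a sugar transporter of ageing leaves, had 2.18 to 2.38 CPM in wild type and 5.19 to 6.26 CPM in hda9-1 without ABA, and 22.6 to 37.2 CPM against 35.9 to 45.5 CPM with ABA. The hda9-1 libraries lay above wild type before the spray, and its interaction was -0.70 ± 0.25 (edgeR adjusted p = 0.321). Removal of length trends moved the medians of 3 lists of short genes, from 0.63 to 0.22 for 16 tested cytosolic ribosomal proteins, from 0.38 to -0.03 for 13 histones and from 0.47 to 0.15 for 15 tested SAUR genes. Other lists of short genes differed: heat shock genes, with a median exon length of 1097 nt, went from 0.09 to -0.03, and photosynthesis genes, with 1255 nt, from -0.03 to -0.18.

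Lower responses in hda9-1 were fewer. XTH15 (AT4G14130, chr4:8137020-8138392) encodes a xyloglucan endotransglucosylase, an enzyme that remodels the cell wall. It had 31.4, 29.2 and 41.1 CPM in wild type and 20.0, 30.4 and 27.0 CPM in hda9-1 without ABA, and 203, 198 and 231 CPM against 71.7, 45.2 and 65.7 CPM with ABA. The genotypes overlapped without ABA, and with ABA every hda9-1 library lay below every wild-type library. ABA raised it by 2.64 ± 0.20 in wild type and 1.24 ± 0.19 in hda9-1, an interaction of -1.40 ± 0.27 (edgeR adjusted p = 0.193). FAMA (AT3G24140), the transcription factor that completes guard cell fate, had 24.1 to 25.5 CPM without and 23.7 to 24.3 CPM with ABA in wild type, and 20.6 to 24.7 CPM without and 11.6 to 15.5 CPM with ABA in hda9-1. It fell with ABA in hda9-1 (-0.66 ± 0.11, edgeR adjusted p = 0.000237), the genotypes separated with ABA, and the interaction was -0.62 ± 0.16 (edgeR adjusted p = 0.232). All 6 guard cell markers had values below 0 (9786 of all 20924 genes had a lower response), with a median of -0.21 and a highest value of -0.004. Only FAMA among these 6 had an unadjusted edgeR p below 0.05 (3.67% of all genes in the lower direction). A contribution of cell number to FAMA was not tested.

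Only 5 of the 5181 genes called in both ABA responses moved in opposite directions, falling in wild type and rising in hda9-1. They were AT3G61560, a reticulon family protein, AT3G19660, an uncharacterised protein, AT1G76770, an HSP20-like chaperone, APT4, an adenine phosphoribosyltransferase, and TOM6, a small subunit of the protein import channel in the outer mitochondrial membrane. AT3G61560 had 6.63, 9.07 and 8.33 CPM without and 5.44, 6.43 and 5.74 CPM with ABA in wild type, and 4.09, 4.67 and 4.01 CPM without and 6.62, 5.69 and 5.60 CPM with ABA in hda9-1. TOM6 had 12, 16.7 and 14.7 CPM without and 10.4, 11 and 10.6 CPM with ABA in wild type, and 11.8, 13.4 and 13.8 CPM without and 18.3, 13.1 and 21.3 CPM with ABA in hda9-1. In AT3G61560 both responses separated the libraries fully, and in TOM6 replicate 2 of hda9-1 with ABA lay among the untreated libraries. AT1G76770 and APT4 stayed under 1 CPM in every library. None of the 5 was called in the interaction (edgeR adjusted p from 0.217 to 0.232). Without hda9-1 with ABA replicate 2, 146 of 5347 genes called in both responses had opposite signs, and without replicates 1 and 3 of that group it was 1 of 5106.

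The number of calls turned on that library. With hda9-1 with ABA replicate 2 left out, edgeR called 1612 of 21116 genes in the interaction, or 7.63%, of which 1052 (4.98%) were higher and 560 (2.65%) lower. Leaving out any other single library gave 0 to 3 calls. Leaving out replicates 1 and 3 of the same group instead, a choice made after the data had been seen, gave 0 calls, with 1 library left in that group and its spread taken from the other groups. The median SD of log2 levels between replicates was 0.21 in hda9-1 with ABA and 0.13 to 0.155 in the other 3 groups.

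The difference between these libraries followed gene length. Genes were put in 4 equal classes by exon length, and in the shortest (up to 1273 nt), the median deviation from the mean of all 12 libraries was 0.29 and 0.34 on the log2 scale in replicates 1 and 3 of hda9-1 with ABA and -0.09 in replicate 2. The hda9-1 libraries without ABA lay between -0.145 and -0.088, and the wild-type libraries between -0.056 and 0.065. Replicates 1 and 3 were thus the libraries apart from the other 10, and replicate 2 lay with hda9-1 without ABA. The median interaction fell with length, from 0.32 in the shortest class through 0.06 and -0.03 to -0.11 in the longest (over 2368 nt). The ABA response in wild type had medians of -0.040 and -0.035 in the shortest and longest classes, and that in hda9-1 of 0.28 and -0.15.

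**Figure D4:**
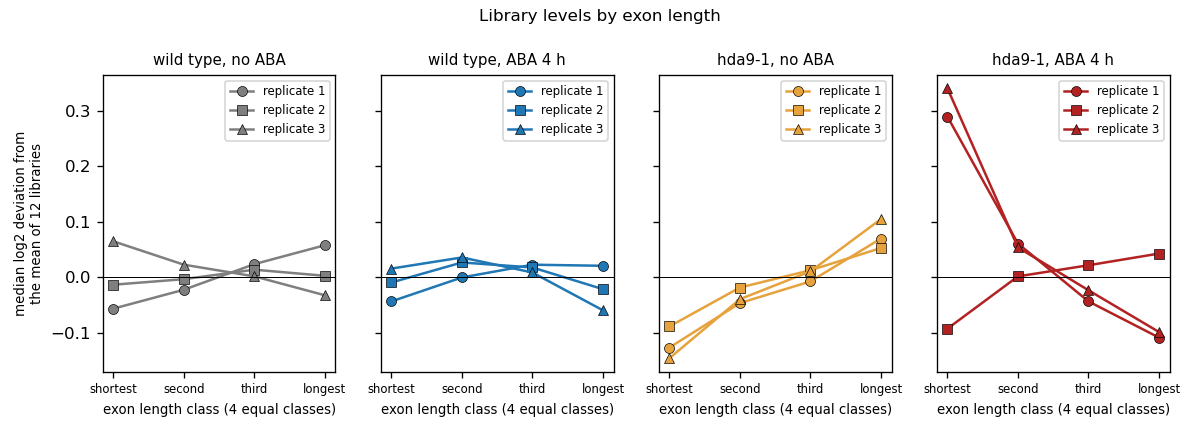
Median log2 deviation of each library from the mean of the 12 libraries (y axis) by class of exon length (x axis), with 1 panel per group and 1 line per replicate. Replicates 1 and 3 of hda9-1 with ABA start at 0.29 and 0.34 in the shortest class, and replicate 2 starts at -0.09.

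The calls made without replicate 2 had the same layout: 835 of the shortest genes were called higher and 9 lower, and 28 of the longest were called higher and 372 lower. Once each library's trend with exon length was removed as well, 200 genes were called, or 0.947%, with 147 (0.696%) higher and 53 (0.251%) lower, and the shortest class held 49 higher and 20 lower. Of the 1612 genes 181 were called in that fit too. UBL5, a ubiquitin-like protein, shows how replicate 2 enters: it had 163, 91.5 and 168 CPM in replicates 1, 2 and 3 of hda9-1 with ABA, against 79.6 to 97.3 CPM in wild type with ABA. Its interaction was 0.80 ± 0.26 with all libraries and 1.00 without replicate 2 (edgeR adjusted p = 0.302 and 0.000676), and 0.17 without replicates 1 and 3. RNA integrity is not given in the sources used here, and a part of RNA quality or library making in this length pattern was not tested.

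**Figure D5:**
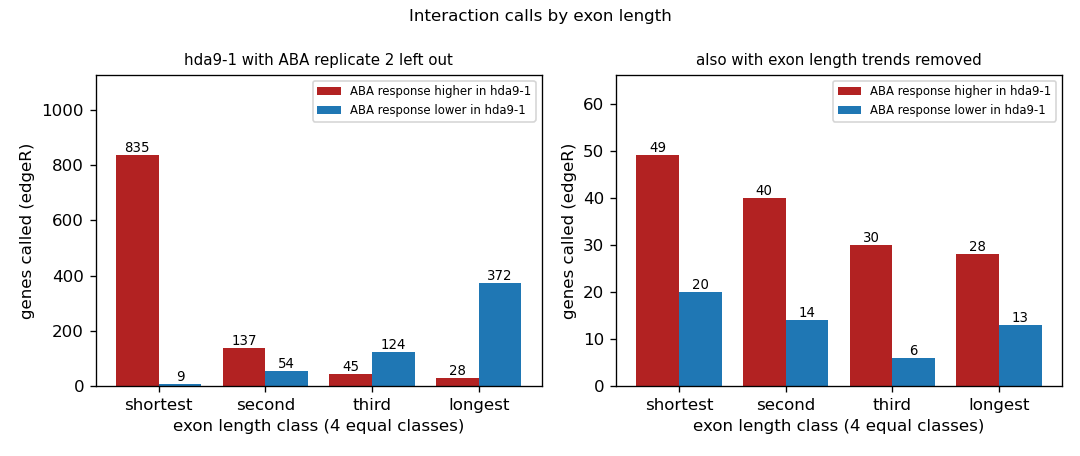
Genes called in the interaction by edgeR (y axis, bars from 0) by class of exon length (x axis), higher in red and lower in blue, with hda9-1 with ABA replicate 2 left out (left) and with exon length trends removed as well (right). The left panel goes from 835 higher calls in the shortest class to 372 lower calls in the longest, and the right panel from 49 higher calls to 28.

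The genes below kept their direction across these fits. With all 12 libraries and the length trend removed, edgeR called 4 genes, or 0.0191%. ABCG10, FAR4 and CDT1, a cysteine-rich peptide of cadmium tolerance, were higher (0.0143%) and XTH15 was lower (0.00478%). The interaction of ABCG10 was 1.39 without replicate 2 and 1.57 without replicates 1 and 3, that of GPAT7 2.24 and 2.25, that of FAR4 0.64 and 0.83, that of XTH15 -1.26 and -1.84, and that of NAC019 2.22 and 1.70. CDT1 had 21.2, 10.3 and 26.0 CPM in hda9-1 with ABA, and its interaction of 2.06 ± 0.36 became 2.33 and 1.16. SDH3-2 moved from 0.94 to 1.07 and 0.53, HTA10, a histone H2A gene, from 0.89 to 0.98 and 0.59, and NDA2 from 0.61 to 0.72 and 0.25.

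DESeq2 with all libraries and edgeR in both fits without replicate 2 shared 44 calls, 38 higher and 6 lower. Without ABA 20 of the 44 were called lower in hda9-1 and 2 higher (6.57% and 6.98% of all genes), and with ABA 19 were called higher and 3 lower (7.50% and 5.21%). The 44 were chosen for a called interaction made from the same levels, so these counts describe them and nothing is read from them. Beside the genes above they held RGF7, a peptide hormone gene, IPT3, an enzyme of cytokinin synthesis, the membrane proteolipid RCI2A, the actin-binding protein ADF5 and the lignin enzyme CAD5. RGF7 had 2.83, 3.8 and 2.7 CPM without and 0.475, 0.351 and 0.438 CPM with ABA in wild type, and 1.32, 1.17 and 0.923 CPM without and 1.45, 0.446 and 1.01 CPM with ABA in hda9-1. It fell in wild type (-2.88 ± 0.40, edgeR adjusted p = 3.68e-05) and its hda9-1 libraries overlapped, with an interaction of 2.65 ± 0.54 (edgeR adjusted p = 0.18). IPT3 had 4.32 to 7.68 CPM without and 3.3 to 3.47 CPM with ABA in wild type, and 4.98 to 6.09 CPM without and 6.06 to 9.14 CPM with ABA in hda9-1. The genotypes separated with ABA, and the interaction was 1.298 ± 0.29 (edgeR adjusted p = 0.209). The 6 lower genes included XTH15, the proline transporter ProT3 and AT5G63180, a pectin lyase-like protein, which fell from 31.1 to 35.2 CPM down to 5.55 to 7.53 CPM in wild type and from 31.5 to 41.9 CPM down to 3.73 to 4.46 CPM in hda9-1, with an interaction of -0.91 ± 0.19 (edgeR adjusted p = 0.206).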

How the data were processed

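Poly(A) mRNA of 12 seedling samples was sequenced after library making with a strand-specific kit, per the labels, which give no read length. The authors deposited 1 gene table of whole-number counts with 23911 rows. The submitters' processing notes name Bowtie2, Salmon, limma 3.56 and TAIR10. Their roles are not given, and rounded estimates are possible. 0 columns of other samples were present.

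Counts were fitted in R 4.3.3 with edgeR 4.0.16 (TMM scaling, filterByExpr at counts of 10 and totals of 15, robust quasi-likelihood model with 4 group means), two-sided, with Benjamini-Hochberg adjusted p below 0.05 over the 20924 genes kept, which hold 99.99% of counts. Levels are TMM-scaled CPM, errors are SE unless stated. DESeq2 1.42.0 and limma-voom 3.58.1 were alternatives, and scripts were tested on simulated data. Exon lengths came from TAIR10.1 for 20801 tested genes, and length trends were removed by lowess offsets with a span of 0.3. Members, gene lists and tests were chosen with earlier results of these data known. The naming rule took genes called with all libraries and in each fit without 1 library, genes called in the interaction and in both ABA responses with opposite signs, and calls lost without hda9-1 with ABA replicate 2, which gave 0 genes each, and HDA9 and the member of each list with the smallest p. The text gives part of these. Other genes were picked after their values were seen, as were the printed promoters.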

Additional observations from a re-analysis of the deposited data

Results flagged for a closer look

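In the genes below every library with ABA lay on one side of every library without ABA in wild type and on the opposite side in hda9-1. That separation picked them out among the 124 named genes only, many of which had been named for a small interaction p. How common it is over all genes is not given here. The test of the difference itself did not pass for any of the genes below (edgeR adjusted p from 0.126 to 0.242). The histone gene HTA10 had an interaction of 0.89 on the log2 scale, the oxidoreductase AT1G60680 0.75, the uncharacterised AT5G24165 0.79, and the calmodulin-like gene TCH2 0.79. The reticulon gene AT3G61560 had 0.94, AT1G27330, a RAMP4 family protein of the endoplasmic reticulum, 1.2, and the arabinogalactan protein AGP15 0.81. In all of these the libraries with ABA were lower in wild type and higher in hda9-1, and in AT1G27330 and AGP15 replicate 2 of hda9-1 with ABA had 13.7 and 92.9 CPM against 25.9 to 27.1 and 137 to 157 CPM in the other replicates of that group.

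ProT3, a proline transporter, went the other way, with 0.432 to 0.504 CPM without and 0.689 to 1.07 CPM with ABA in wild type, 0.971 to 1.45 CPM and 0.254 to 0.587 CPM in hda9-1, and an interaction of -2.53. APT4 had a fitted interaction of 4.79 from 91, 16, 5 and 28 counts over the 3 libraries of wild type without and with ABA and of hda9-1 without and with ABA. AT1G76770 had a fitted 6.09 from 24, 2, 6 and 42 counts. Its ratio with to without ABA in wild type was 0.088, with a 95% interval of 0.0101 to 0.355 that covers counting error only. Such fitted values depend on the prior count.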

How the results depend on the processing

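Interaction calls, 0 with all libraries, were 1 with upper-quartile factors, 1 with library size alone, 1 without a filter on low counts, 1 with length and GC trends removed, 4 with the length trend removed, 123 with DESeq2, 0 to 1612 with single libraries left out, 200 without hda9-1 with ABA replicate 2 with the length trend removed, and 2571 with DESeq2 without that library. The single calls were ABCG10 each time. Without wild type without ABA replicate 1 the calls were WRKY56, HR4 and AT4G12490, without its replicate 2 HSFA6B and CSLG2, without hda9-1 without ABA replicate 1 AT4G36610 and CYP86B1, and without its replicate 3 GPAT7. ABCG10 was called without wild type with ABA replicate 3 and without hda9-1 with ABA replicate 3. All were named after their values were seen. List members were counted over 34 lists with 566 tested members, without the 3 lists added after the data had been seen. Calls among them, 0 with all libraries, were 7 with DESeq2 (0.588% of all genes) and 0 to 46 with single libraries left out. The 46 came without hda9-1 with ABA replicate 2 (7.63% of all genes). With the length trend also removed there were 6 (0.947% of all genes). DESeq2 without replicate 2 called 75, beside 2571 of all 21116 genes.

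ABA calls in wild type, 6474 at an adjusted p below 0.05, were 4132 at 0.01 and 4707 to 7437 with single libraries left out. Those in hda9-1, 8767 at 0.05, were 6052 at 0.01 and 7300 to 9572 with single libraries left out. Genotype calls without ABA, 2835 at 0.05, were 986 at 0.01, 1382 to 3808 with single libraries left out and 4668 with DESeq2 without replicate 2. Those with ABA, 2660 at 0.05, were 867 at 0.01, 1075 to 4640 with single libraries left out, 644 without replicates 1 and 3 and 5480 with DESeq2 without replicate 2. The median interaction of the shortest class, 0.32, was 0.012 with the length trend removed, 0.010 with the block added, -0.003 with GC removed too, 0.00 without replicate 2 as well, and 0.006 without replicates 1 and 3. That of the longest class was 0.003 with length and GC removed. PSAE-1, at 0.38, turned to -0.063 with length removed, -0.036 with GC too, -0.064 with the block and -0.143 without replicate 2. ABI1, at -0.04, turned to 0.005 with length and GC removed, 0.009 with length removed without replicate 2, and 0.003 and 0.011 without replicate 3 of wild type without and with ABA, in a range of -0.121 to 0.011 with single libraries left out. No other named gene of the 124 changed sign. The causes were not tested.

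With the replicate block edgeR called 0 genes, with 2286 at an unadjusted p below 0.05. With the block added to the fit with length trends removed, the 4 calls of that fit became 0, with 1845 at an unadjusted p below 0.05 and a smallest adjusted p of 0.073. Same-numbered libraries correlated at -0.153 to 0.121 over 18 pairs, and 1 of 12 libraries correlated best with its own number, so the numbers were not taken to pair samples. Depth limited genes under 1 CPM, where the median SE of the interaction was 0.936.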
